A study of Mus musculus with 10 samples.

Results

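Cftr, Ahcyl2 and Aqp3 are genes of epithelial chloride and water transport, and their transcripts were followed in mouse colon with and without Vista after chemical injury. They were 3 of 55416 rows in the deposited count tables, and they were chosen by their measured counts in the contrast of knockout with wild-type (WT) libraries. Differences between genotypes in these 3 rows are therefore given as descriptions with no test. Every mouse received 2% dextran sulfate sodium (DSS), an agent that injures the colonic epithelium, in its drinking water for 7 days, and the whole colon was taken for RNA. The compared groups were 5 Vista knockout and 5 WT libraries, with 3 of each in a first deposited table and 2 of each in a second. Vista is an immune checkpoint protein of leukocytes, encoded by Vsir. For the knockout group the titles read KO, the genotype field read "VISTA knockdown" in the first table and "Vista-/-" in the second, and the sources used here do not give the strain, the age, the sex or how the allele was made. No colon without DSS was analysed here, so every level below is a level after injury. The libraries are numbered 1 to 3 in the first table and 4 and 5 in the second within each genotype, and a number shared by both genotypes pairs nothing.

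The colonic epithelium absorbs salt and water and secretes chloride, and water follows the ions. CFTR is the cyclic-AMP-regulated chloride and bicarbonate channel of the apical membrane and the main exit path for secreted chloride. AHCYL2, also called Long-IRBIT, belongs to the family of IRBIT, a protein that binds the inositol trisphosphate receptor and regulates bicarbonate cotransporters and CFTR. AQP3 is an aquaglyceroporin, a channel for water and glycerol that lies in the basolateral membrane of colonic epithelial cells.

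Gene names were read only inside 3 stretches of the mm10 genome, on chromosome 4 from 1 to 59 Mb, chromosome 6 from 1 to 30 Mb and chromosome 15 from 11 to 38 Mb, because elsewhere in these tables counts do not follow the names. Of genes that practically every cell uses, 8 of 8 inside held at least 500 counts over the 10 libraries, with a median of 15977.5 counts, whereas 41 of 247 (16.6%) did outside, with a median of 9 counts. The stretches held 1374 rows, 506 of them protein-coding, and between 9.62% and 10.35% of all counts in a library. Total depth was 3691322 to 4071238 counts per library. On the first principal component, which held 37.8% of the variance, the scores of WT 4 and WT 5 were 47.05 and 51.43, and no other library scored outside -26.15 to 5.18. Results are therefore also given without those 2 libraries. The row of Vsir lies outside the stretches, so the genotype labels were not checked against the targeted gene.

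The 3 genes share neither strand nor size, and their start regions are shown as a description. Any link of these regions to the counts was not tested. Cftr lies on the plus strand of chromosome 6 at 18170687 to 18322768 (mm10), with 29 exon blocks and 7765 exon bases. Ahcyl2 lies on the same strand of chromosome 6 at 29768011 to 29912310, with 25 exon blocks and 18255 exon bases. Aqp3 lies on the minus strand of chromosome 4 at 41092722 to 41098183, with 6 exon blocks and 1829 exon bases. The sequences below are the stretches just upstream of the starts that RefSeq annotates, from RefSeq for GRCm38.p6, with every base inside a GENCODE M21 exon of the gene left out. The Ahcyl2 stretch lies between the first exon block of the GENCODE M21 gene, whose span begins farther upstream, and the start that RefSeq gives. The 3 stretches cover chr6:18170437-18170686 for Cftr, chr6:29768318-29768442 for the first of 3 RefSeq starts of Ahcyl2, and chr4:41098184-41098433 for Aqp3, each read 5' to 3' on the strand of its gene. Capitals mark GGGCGG on either strand, the core of the GC box, and TATAAA, the TATA box.
Cftr: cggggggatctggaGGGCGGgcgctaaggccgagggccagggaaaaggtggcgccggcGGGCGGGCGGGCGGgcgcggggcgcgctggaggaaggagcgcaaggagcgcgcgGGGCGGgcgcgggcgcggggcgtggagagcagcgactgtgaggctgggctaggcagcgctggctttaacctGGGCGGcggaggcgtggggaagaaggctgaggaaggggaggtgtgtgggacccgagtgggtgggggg
Ahcyl2: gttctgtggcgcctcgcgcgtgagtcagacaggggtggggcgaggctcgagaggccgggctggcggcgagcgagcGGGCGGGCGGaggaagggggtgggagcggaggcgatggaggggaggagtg
Aqp3: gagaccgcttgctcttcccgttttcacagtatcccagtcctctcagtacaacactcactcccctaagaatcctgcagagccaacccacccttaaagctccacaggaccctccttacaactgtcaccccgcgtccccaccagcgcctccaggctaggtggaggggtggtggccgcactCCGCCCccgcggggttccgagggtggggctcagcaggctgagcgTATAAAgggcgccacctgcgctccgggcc
The Cftr stretch had a GC content of 76.4% and held 6 GC-box cores, some of which overlapped. The Ahcyl2 stretch had a GC content of 75.2% and 2 overlapping GC-box cores. Upstream of Aqp3 the GC content was 64.0%, with 1 GC-box core, which lies on the opposite strand, and 1 TATA box, which neither of the other two held. Among 32851 RefSeq start windows of the same length as those of Cftr and Aqp3, the median GC content was 52.4%, 32.7% held the GC-box core and 12.4% held the TATA box. In the part of each window nearest the start, of the same length as the Ahcyl2 stretch, 26.9% held the GC-box core and 6.55% the TATA box. The 3 stretches held no CCAAT on either strand, which 33.8% of the longer windows held. They also held no TGACGTCA, the cyclic-AMP element, found in 1.55% of the windows. Its variant TGACATCA (2.93% of the windows) was likewise in none of them. ACGTG, 1 form of the core of the hypoxia element, was also absent from these letters, with 16.6% of the windows holding it. The other form, GCGTG, occurs in the Cftr and Ahcyl2 letters and was not counted in the windows. Letters in a window are a description and not a binding site.

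Ahcyl2 and Cftr were well counted and Aqp3 was close to empty. Levels are given as CPM, counts scaled to a common library total, and levels of different genes are compared only as CPM per kilobase of exon. Ahcyl2 held 59415 counts over the 10 libraries, at 84.6 CPM per kilobase, position 75 of the 506 protein-coding rows read by name. Cftr held 18529 counts, at 62.3 CPM per kilobase and position 97. Both stood above the median of those rows, which was 9.42 CPM per kilobase. Aqp3 held 23 counts in all, at 0.323 CPM per kilobase and position 370, and 124 of the 506 rows held no more counts than it did. Overlapping rows took few counts: antisense Gm15592 shares 129 exon bases with Cftr and held 3 counts, and 4930528J11Rik shares 288 exon bases with Ahcyl2 on the opposite strand and held 7. The pseudogene Gm15595 lies within Cftr without shared exon bases and held 11, and no row overlaps Aqp3. The strand setting of the counting was not given, so reads of a gene and of an overlapping row cannot be told apart.

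Transcripts of Cftr, the apical chloride channel, were lower in most knockout libraries than in WT. Knockout libraries 1 to 5 held 357.0, 266.3, 387.5, 286.4 and 525.2 CPM, from 1084 to 2002 counts. WT libraries 1 to 5 held 479.2, 635.8, 471.3, 698.9 and 727.7 CPM, from 1771 to 2686 counts. Knockout 5 stood above WT 1 and WT 3, and the other 4 knockout libraries stood below every WT library, so the groups overlapped. The mean was 364.5 ± 102.7 CPM in knockout and 602.5 ± 120.9 CPM in WT (SD, n = 5 each). Fitted with the table as a covariate, the knockout over WT difference on the log2 scale was -0.69, a level 1.61-fold lower. Its approximate standard error (SE), derived from the test statistic of the fit, was 0.16.

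Ahcyl2, the relative of IRBIT, separated the genotypes without overlap. Its levels were 1004.6, 1092.3, 1035.1, 1107.7 and 1391.2 CPM in knockout libraries 1 to 5, from 3873 to 5303 counts. WT libraries 1 to 5 held 1830.7, 2418.4, 1742.6, 2232.2 and 1593.2 CPM, from 5881 to 9529 counts. The highest knockout library, knockout 5, lay below the lowest WT library, WT 5. Such complete separation, with every knockout library below every WT library, was seen in 4.51% of the 9736 rows tested, and nothing is read from it here because this contrast chose the gene. The mean was 1126.2 ± 153.9 CPM in knockout and 1963.4 ± 347.4 CPM in WT (SD, n = 5 each). The log2 fold change was -0.78 with an SE of 0.13, a level 1.71-fold lower. Over all rows, 5.63% were called in this pooled comparison at an adjusted p under 0.05, 2.93% lower and 2.7% higher in knockout, or 285 and 263 rows. Scaling by the stretches read by name in place of all rows turned that split to 215 lower and 350 higher, with the median log2 fold change of all rows at 0.07 in place of 0.02.

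Aqp3, the basolateral water and glycerol channel, could not be compared between genotypes at this depth. Knockout libraries 1 to 5 held 3, 2, 2, 4 and 4 counts, and WT libraries 1 to 5 held 1, 2, 2, 1 and 2 counts. The groups meet at 2 counts, and 8 of the 10 libraries held no more than 3 counts, the limit that a count of 0 allows. Summed over the group, knockout stood at 0.761 CPM with an exact Poisson 95% interval of 0.426 to 1.26, and WT at 0.422 CPM with an interval of 0.182 to 0.832. The intervals overlap, cover counting error only and say nothing of the spread between mice. The row was removed by the filter on low counts, so no fold change is given.

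**Figure D1:**
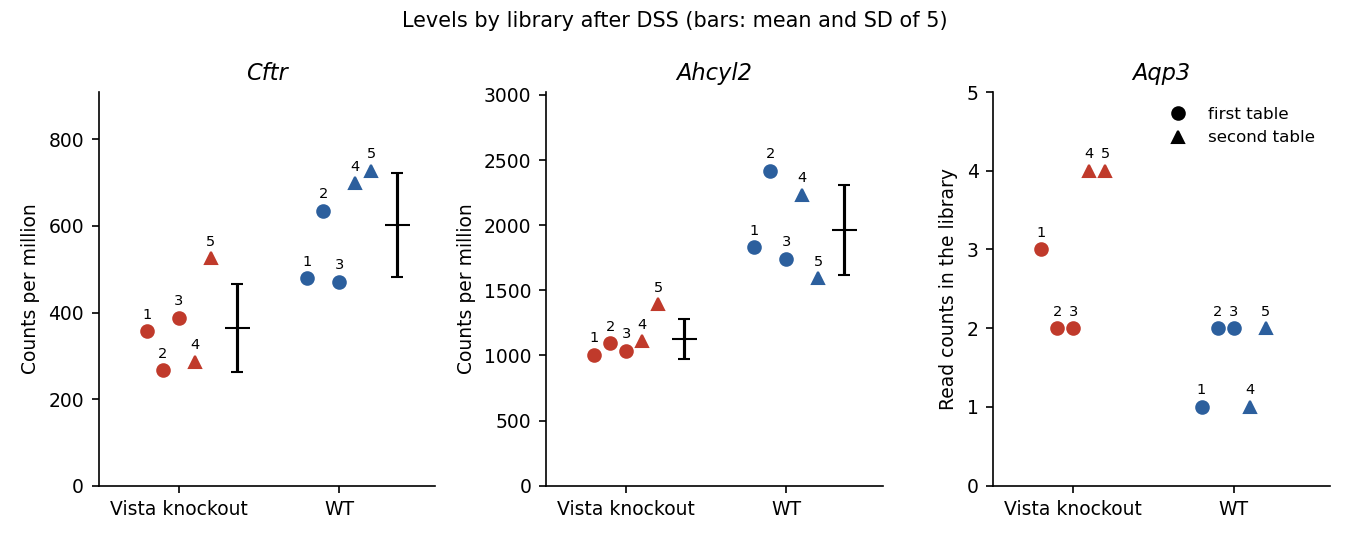
Levels of Cftr and Ahcyl2 in CPM and counts of Aqp3, by library, for 5 Vista knockout and 5 WT libraries after DSS, with circles for the first table, triangles for the second and bars for the mean and SD. For Ahcyl2 every knockout library lies at or below 1391.2 CPM and every WT library at or above 1593.2 CPM, for Cftr knockout 5 reaches into the WT range, and Aqp3 stays at 4 counts or fewer.

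Within each table separately, Cftr and Ahcyl2 were lower in knockout. These contrasts also entered the choice of the genes and make up the pooled one, so they are not a repeat of it. In the first table Cftr averaged 336.9 ± 63.1 CPM in knockout and 528.7 ± 92.8 CPM in WT (SD, n = 3 each), a log2 fold change of -0.62 (SE 0.14), in a comparison that called 6.06% of all rows tested. The second table gave 405.8 ± 168.9 and 713.3 ± 20.4 CPM (SD, n = 2 each), or -0.81 (SE 0.30), where 0.856% of all rows were called. That second value rested on single libraries, being -1.32 without knockout 5 and -0.43 without knockout 4. The 2 knockout libraries of that table were the highest and the second lowest of the 5 for Cftr. Ahcyl2 averaged 1044.0 ± 44.5 CPM in knockout and 1997.2 ± 367.4 CPM in WT in the first table (SD, n = 3 each), a log2 fold change of -0.90 (SE 0.13). In the second table the means were 1249.4 ± 200.4 and 1912.7 ± 451.9 CPM (SD, n = 2 each), or -0.61 (SE 0.23), and that value was -0.35 without WT 4. Without both WT 4 and WT 5, and without the covariate, the pooled log2 fold change was -0.52 for Cftr and -0.81 for Ahcyl2.

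The difference between the 2 tables in the genotype contrast is given as a description, since both contrasts were used in choosing the genes. For Cftr this interaction of genotype and table was -0.19 on the log2 scale (SE 0.33), and it turned to 0.19 without knockout 4. For Ahcyl2 it was 0.29 (SE 0.25). Over all rows 2.05% were called in the interaction. The level within 1 genotype was compared between the tables with a test. It is not the knockout over WT contrast, but the interaction is the difference of these 2 comparisons, so they are not fully independent of the choice. Second-table WT libraries had 0.41 more Cftr on the log2 scale than first-table WT libraries (SE 0.23, adjusted p = 0.378 by edgeR), while 4.13% of all rows were called in that comparison. Ahcyl2 differed by -0.09 there (SE 0.18, adjusted p = 0.848 by edgeR), with the sign turning to 0.06 without WT 2 and 0.14 without WT 5. Between the knockout libraries of the 2 tables the differences were 0.21 for Cftr (SE 0.23, adjusted p = 0.918 by edgeR; -0.29 without knockout 5) and 0.20 for Ahcyl2 (SE 0.18, adjusted p = 0.892 by edgeR), with 0.0411% of rows called. No difference between tables passed the test for either gene.

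**Figure D2:**
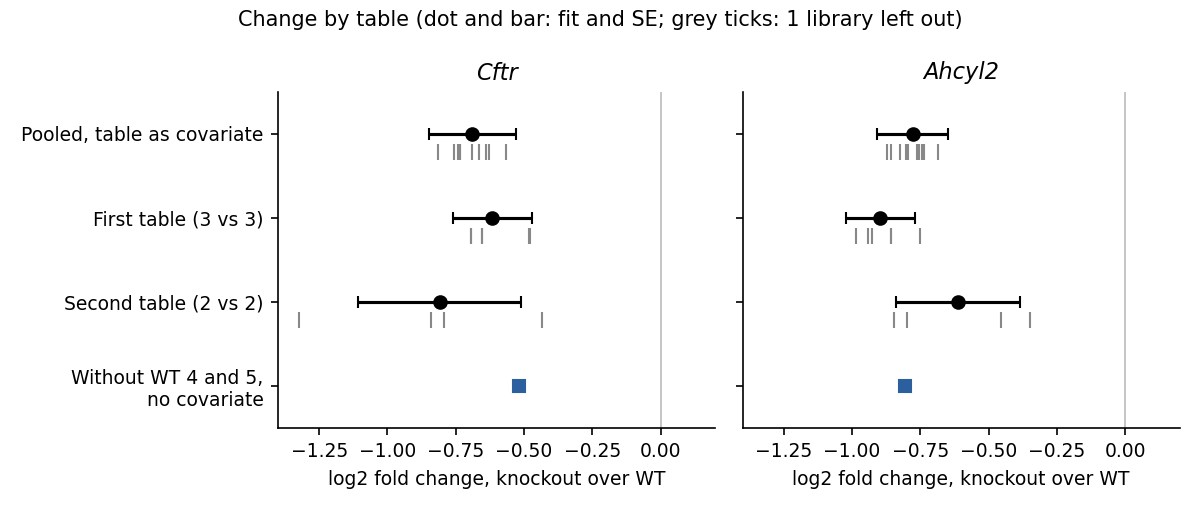
Fitted log2 fold changes for Cftr and Ahcyl2, knockout over WT, pooled, in each table and without WT 4 and WT 5, as a dot with a bar of 1 SE (a square with no bar for the last), and grey ticks for the fits with 1 library left out. All values lie below 0, and the ticks spread farthest for Cftr in the second table, from -1.32 to -0.43.

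Cftr and Ahcyl2 did not keep a fixed ratio to each other. Cftr counts were 35.5%, 24.4%, 37.4%, 25.9% and 37.8% of Ahcyl2 counts in knockout libraries 1 to 5. In WT libraries 1 to 5 they were 26.2%, 26.3%, 27.0%, 31.3% and 45.7%. The shares of the 2 genotypes overlapped, with the lowest and the second lowest in knockout 2 and 4 and the highest in WT 5. Over the 10 libraries the levels of the pair had a Pearson r of 0.81 and a Spearman rho of 0.71 on log2(CPM + 1). After the mean of each genotype in each table was removed, r was 0.49. These correlations are descriptions over libraries that share the genotype difference used to choose the genes.

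In whole colon, fewer epithelial cells and less RNA per cell cannot be told apart, so both genes were also set against genes of the epithelium. Of 10 epithelial markers 5 could be read by name, and none of the 5 passed the pooled edgeR test. Cdh17, an intestinal cadherin, stood at 3393 ± 324.2 CPM in knockout and 3372.2 ± 201 CPM in WT (SD, n = 5 each; log2 fold change 0.04, adjusted p = 0.839 by edgeR). Esrp1, an epithelial splicing regulator, stood at 1126.1 ± 53 and 1307.1 ± 77.9 CPM (-0.19, adjusted p = 0.191 by edgeR). Its libraries did not overlap, at 1078.5 to 1211.0 CPM in knockout and 1231.7 to 1410.0 CPM in WT, with the knockout lower as for Ahcyl2. Such separation was seen in 4.51% of all rows tested. The transcription factor genes Grhl2 (-0.15, adjusted p = 0.498) and Klf4 (0.21, adjusted p = 0.476) and the goblet cell gene Spink4 (-0.11, adjusted p = 0.822) did not pass in edgeR either. The 5 summed to between 7429.8 and 10274.6 CPM in knockout libraries and between 7753.6 and 11005.9 CPM in WT, so the sums overlapped over most of their range, although they are ruled by Cdh17, Klf4 and Spink4 and do not show the separation of Esrp1.

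Ahcyl2 was also set against the geometric mean of Cdh17, Esrp1, Grhl2 and Klf4 in the same library. That mean varied little, from 927.2 to 1135.2 CPM in knockout and from 1059.1 to 1249.9 CPM in WT. The ratios therefore largely repeat the contrast that chose the genes. The log2 level of Ahcyl2 relative to the 4 markers was -0.12, -0.03, -0.13, 0.26 and 0.32 in knockout 1 to 5. For WT 1 to 5 it was 0.55, 1.19, 0.71, 0.96 and 0.57. The difference was -0.74, from 0.06 ± 0.21 in knockout and 0.80 ± 0.28 in WT (SD, n = 5 each), and every knockout library lay below every WT library. For Cftr the relative levels were -1.61, -2.06, -1.55, -1.70 and -1.09 in knockout and -1.38, -0.74, -1.17, -0.71 and -0.56 in WT. The difference was -0.69, from -1.60 ± 0.35 in knockout and -0.91 ± 0.35 in WT (SD, n = 5 each), with knockout 5 again inside the WT range. Without WT 4 and WT 5, a check chosen after seeing the data, the differences were -0.76 for Ahcyl2 and -0.50 for Cftr. These are descriptions with no test, and 4 markers do not separate crypt from surface epithelium.

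**Figure D3:**
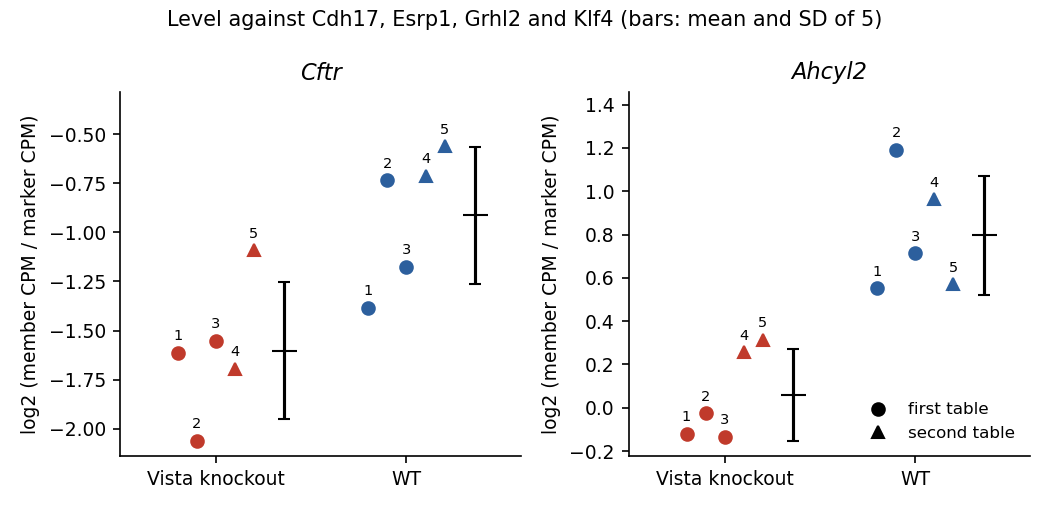
The log2 ratio of Cftr or Ahcyl2 to the geometric mean of Cdh17, Esrp1, Grhl2 and Klf4 in each library, with the mean and SD of 5 libraries per genotype. Ahcyl2 lies between -0.13 and 0.32 in knockout and between 0.55 and 1.19 in WT, while the Cftr ranges of -2.06 to -1.09 and -1.38 to -0.56 overlap.

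Markers of other cells that could be read were few. Of the T cell list only Tox, a transcription factor of T cells, could be read; it fell (log2 fold change -0.59, adjusted p = 0.0427 by edgeR), with a range of 48.1 to 63.0 CPM in knockout and of 62.8 to 112.3 CPM in WT. Lyn, a kinase of myeloid and B cells and the single readable gene of the myeloid list, did not pass (0.61, adjusted p = 0.0717 by edgeR), with 253.2 to 464.6 CPM in knockout and 161.5 to 317.8 CPM in WT. The 4 readable fibroblast genes summed to 731 to 1374.8 CPM in knockout and 764.9 to 1453.2 CPM in WT, and the 2 of smooth muscle to 708.8 to 1582.9 and 907.5 to 1614.1 CPM. The 3 B cell genes summed to 117.7 to 252.1 and 25.2 to 291 CPM, and endothelial Cav1 stood at 157.4 to 521 and 160.1 to 365.8 CPM. None of the fibroblast, smooth muscle, B cell and endothelial genes passed in edgeR. The lymphoid stromal chemokine genes Ccl19 and Ccl21a were near 0 and were not tested, with sums of 1.57 to 16.9 CPM in knockout and 0 to 3.6 CPM in WT. Of the enteric neuron genes, Tac1 rose and Penk fell (-1.02, adjusted p = 0.0308 by edgeR). The part of any of these cells in the levels of Cftr and Ahcyl2 was not tested.

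The rows around each gene show how well each neighbourhood was counted. Within 500 kb of Cftr lie 4 protein-coding rows, of which St7 (40.0 CPM) and Cttnbp2 (58.8 CPM) exceeded 10 CPM, Wnt2 held 26 counts and the germ cell gene Asz1 held 1. Neither of the 2 that could be tested was called in the pooled comparison. Within 500 kb of Ahcyl2 lie 15 such rows, 10 of them above 10 CPM, led by the calcium-binding gene Calu at 936 CPM, and none of the 11 tested was called. Hilpda, a lipid droplet gene in that window, stood at -0.68 (adjusted p = 0.0646 by edgeR). Since 5.63% of all rows were called, few calls or none among so few rows would be the background, and nothing is read from these counts.

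The row of Aqp3 stood among well-counted rows. Within 500 kb lie 19 protein-coding rows, 17 of them above 10 CPM, with a median of 84.5 CPM per kilobase against 0.323 for Aqp3 itself. On its flanks, Nfx1 beyond Aqp7 and Nol6 on the other side held 12441 and 6560 counts, and the goblet cell gene Spink4 in the same window held 83321. Aqp7, another aquaglyceroporin gene next to Aqp3, held 26 counts, or 0.235 CPM per kilobase. Both aquaglyceroporin rows were thus close to empty in a window that was otherwise mostly well counted. Of the 17 tested rows 1 was called, against 5.63% of all rows, and this was the galactosyltransferase gene B4galt1, which rose (log2 fold change 0.72, adjusted p = 0.0163 by edgeR).

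**Figure D4:**
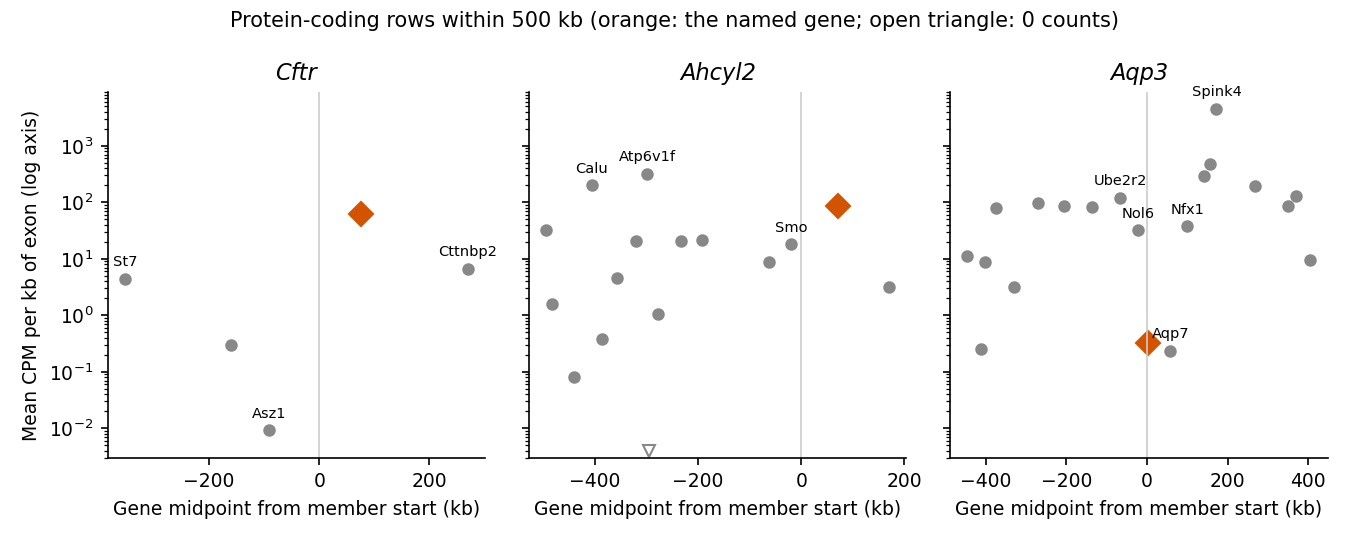
Mean CPM per kilobase of exon, on a log axis, of every protein-coding row within 500 kb of Cftr, Ahcyl2 and Aqp3, placed by its distance from the start of the named gene in kb. Cftr (62.3) and Ahcyl2 (84.6) stand above the medians around them (2.36 and 8.85), whereas Aqp3 (0.323) stands far below its own (84.5).

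Other transport genes could be read in small number. A list of 65 genes of epithelial ion and water transport and its control was chosen with earlier results of these data known. Only 3 of its members lay inside the stretches, Aqp7 and also Tac1 and Lpar1, which encode no transporter. The list was therefore joined by every row there that belongs to a carrier, channel, pump or carbonic anhydrase family, which gave 21 rows. Of these, 13 could be tested and 8 were too low. In the pooled comparison 2 fell, 1 rose and 10 did not pass, where 2.93% of all rows fell and 2.7% rose. With so few rows, chosen with earlier results known, these counts are a description only. The fitted log2 fold change was below 0 in 11 of the 13 and above 0 in Tac1 and Lpar1, which encode no transporter. The median of the 13 was -0.16, against 0.02 over all rows tested and -0.04 over the 409 tested rows inside the stretches. Of those 409, 29 fell and 8 rose, where 2.93% of all rows fell and 2.7% rose. The 409 include Cftr and Ahcyl2, which this contrast chose, so nothing is read from these counts.

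Car9, a membrane-bound carbonic anhydrase of the gut epithelium that hydrates carbon dioxide outside the cell, fell in the knockout. Its level was 304.6, 301.1, 343.1, 426.8 and 338.7 CPM in knockout 1 to 5. In WT 1 to 5 it was 508.4, 533.5, 437.3, 577.5 and 519.1 CPM, without overlap, a separation seen in 4.51% of all rows tested. The log2 fold change was -0.56 (SE 0.09, adjusted p = 0.00791 by edgeR). It lost the call in 1 of 18 alternative fits, the one without WT 4 and WT 5, at -0.51. Slc35a1, the Golgi carrier of CMP-sialic acid, fell from 702.6 ± 71.8 CPM in WT to 527.3 ± 60.0 CPM in knockout (SD, n = 5 each; log2 fold change -0.39, adjusted p = 0.0418 by edgeR). WT 1, at 575.2 CPM, lay below the 585.8 and 594.9 CPM of knockout 1 and 3. That call was lost in 10 of 18 alternative fits, with log2 fold changes from -0.47 to -0.34 over all 18. Of the 10, 8 left out 1 library and 1 left out both WT 4 and WT 5. The other was the fit scaled inside the stretches (adjusted p = 0.0667 by edgeR).

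Tac1, which encodes substance P, a neuropeptide that stimulates intestinal secretion, rose. Knockout libraries 1 to 5 held 644.1, 512.9, 562.0, 111.6 and 173.4 CPM and WT libraries 1 to 5 held 165.1, 119.5, 161.0, 103.1 and 70.2 CPM. The first 3 knockout libraries stood well above every WT library, whereas knockout 4 lay below 3 of the WT libraries. The pooled log2 fold change was 1.498 (SE 0.25, adjusted p = 0.00827 by edgeR), and the call was lost without the table covariate (1.73) and without WT 4 and WT 5 (1.47). Second-table knockout libraries were lower than first-table ones by -2.07 on the log2 scale (adjusted p = 0.0312 by edgeR), while the interaction of genotype and table did not pass (-1.26, adjusted p = 0.0797 by edgeR). The call between tables in knockout was lost without knockout 1, 2 or 3 and without WT 3, at adjusted p of 0.0666 to 0.118 by edgeR. Tac1 was the 1 row of the joined list called higher, and it encodes no transporter.

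Of the 5 most abundant of these rows, Slc35a1 and Car9 are described above and the other 3 did not pass. Slc44a1, a choline transporter, averaged 1232.9 CPM, with 1203.4 ± 114.7 CPM in knockout and 1262.3 ± 170.4 CPM in WT (SD, n = 5 each; -0.03, adjusted p = 0.884 by edgeR). Atp6v1f, a subunit of the vacuolar proton pump, ranged from 312.0 to 339.1 CPM in knockout and from 350.2 to 393.2 CPM in WT, without overlap, but did not pass (-0.14, adjusted p = 0.249 by edgeR). Slc25a51, the mitochondrial NAD carrier, likewise did not overlap, at 233.3 to 256.0 and 264.6 to 310.1 CPM, and did not pass (-0.16, adjusted p = 0.222 by edgeR). Every knockout library lay below every WT library in 4.51% of all rows tested, and nothing is read from these separations. Lpar1, a receptor of lysophosphatidic acid, stood at 0.11 (adjusted p = 0.571 by edgeR). The 8 untested rows held between 0 and 53 counts, and Slc26a7, an anion exchanger gene of the same family as the colonic chloride exchanger, held 48.

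Car8 and Slc13a1 had the lowest fitted fold changes of the 13 and are named because their values were seen. Car8, a carbonic anhydrase relative without enzymatic activity, stood at 32.3, 30.2, 56.1, 25.2 and 26.5 CPM in knockout 1 to 5. It stood at 42.2, 59.9, 69.5, 225.3 and 309.1 CPM in WT 1 to 5. The pooled log2 fold change was -1.62 (SE 0.48, adjusted p = 0.0763 by edgeR). The genotype difference depended on the table, with an interaction of -2.86 (SE 0.37, adjusted p = 0.00423 by edgeR), and was -0.50 in the first table (adjusted p = 0.192 by edgeR) and -3.37 in the second (adjusted p = 0.0173 by edgeR). Slc13a1, a sodium-sulfate cotransporter, was likewise highest in WT 4 and WT 5, at 43.5 and 136.8 CPM, and stood between 4.91 and 26.8 CPM in the other 8 libraries. Its pooled log2 fold change was -1.76 (SE 0.48, adjusted p = 0.0592 by edgeR). With DESeq2, with limma-voom and without the filter on low counts, Car8 and Slc13a1 passed beside Car9, Slc35a1 and Tac1, and without WT 4 and WT 5 none of the rows passed (7 at an unadjusted p under 0.05). High values in WT 4 and WT 5 were thus a feature of Car8 and Slc13a1, where Cftr also had its 2 highest levels, without passing the test between tables, and Ahcyl2 did not.

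**Figure D5:**
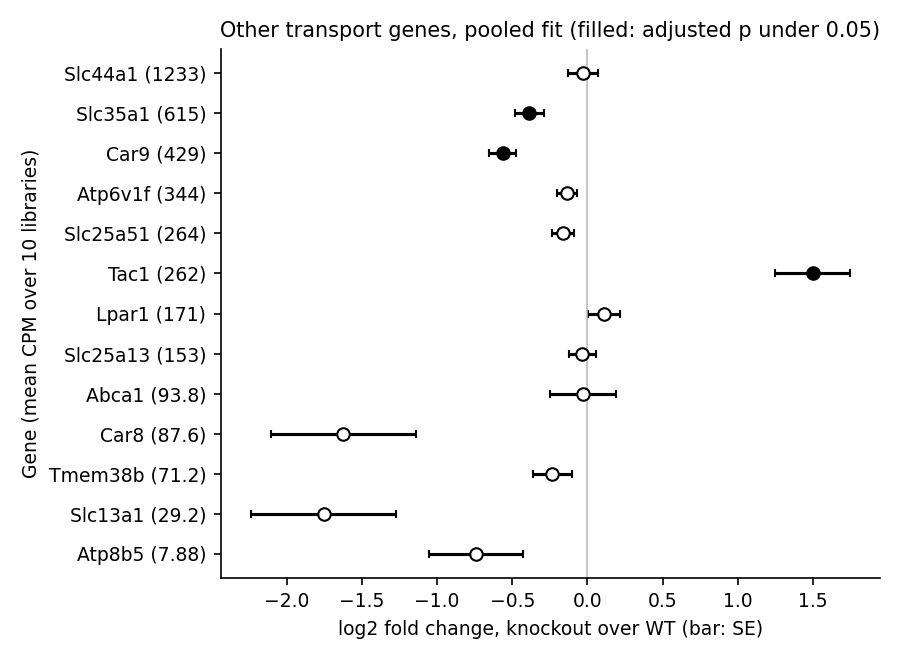
Fitted log2 fold changes of knockout over WT with bars of 1 SE for the 13 other rows of the joined transport list that could be tested. Tac1 and Lpar1 among them encode no transporter. Rows are listed with their mean CPM, with filled points for an adjusted p under 0.05. Tac1 stands alone on the right at 1.498, Car9 at -0.56 and Slc35a1 at -0.39 are filled on the left, and Car8 and Slc13a1 lie farthest left with the widest bars.

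The rows most like Cftr across the 10 libraries were named by Pearson r of log2(CPM + 1) among 344 rows inside the stretches. Ank, a membrane protein gene that governs extracellular pyrophosphate, came first with r = 0.97, and r was 0.94 after the mean of each genotype in each table was removed. Zcchc7, a zinc finger gene, followed with r = 0.96. Further rows were Ppp1r9a (0.94), which encodes an actin-binding scaffold, and AI464131 (0.93). Of these 4, Ank was called lower in the pooled comparison (log2 fold change -0.97), against 2.93% of all rows. The other 3 did not pass, with Zcchc7 at -0.18. Nothing is read from the call, because likeness to a gene chosen by this contrast favours such rows. Ahcyl2 stood at position 32 by likeness to Cftr. The variation that Cftr shared with these rows was thus largely present within the genotypes too.

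The rows named here as most like Ahcyl2 were others. Acnat1, which encodes an acyl transferase, came first with r = 0.96, and 0.88 with the group means removed. The lactonase gene Pon2 (0.88), Tmem246 (0.87) and Tmem229a (0.87) were also among the closest. These 4 were lower in knockout, with pooled log2 fold changes from -0.60 for Pon2 to -1.69 for Tmem229a, which averaged only 4.6 CPM. All 4 were called lower, against 2.93% of all rows. Likeness to a gene chosen by this contrast favours rows that differ in it, so nothing is read from these calls. With the group means removed, r was 0.71 for Tmem246, 0.36 for Pon2 and -0.45 for Tmem229a, so for the last 2 the likeness lay mostly in the difference between genotypes and tables. Cftr stood at position 15 by likeness to Ahcyl2. Among the epithelial markers, Grhl2 varied most closely with Cftr (r = 0.76) and Esrp1 with Ahcyl2 (r = 0.70), while Cdh17 had r = -0.40 with Cftr and 0.04 with Ahcyl2. All these correlations rest on the same 10 libraries and carry no test.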

How the data were processed

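Reads were counted per Ensembl gene by the authors, and the deposited values are raw counts in 2 tables with the same 55416 rows. Per the submitters' processing notes, HISAT2 2.2.1 and featureCounts 2.0.1 were used for the first 6 libraries, with GRCh38, a human assembly, named as the build although the row identifiers are of mouse, and HISAT2, featureCounts 2.0.1 and mm10 for the other 4. Per the labels, sequencing was on a BGIseq500, with single-end reads of 50 bases for the second table. The sources used here name neither the annotation nor a strand setting. Identifiers were named with GENCODE M21 (52083 named, 3333 not).

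CPM values were computed from the counts and the column totals. All tested rows were fitted with edgeR 4.0.16 in R 4.3.3 (filterByExpr by genotype, TMM, quasi-likelihood test, Benjamini-Hochberg adjustment over all tested rows, threshold 0.05), pooled with the table as covariate, in each table alone, and with a genotype by table interaction. The filter left 9736 rows pooled, 9829 for the first table and 9932 for the second, of which 548 (5.63%), 596 (6.06%) and 85 (0.856%) were called. Every SE given is the absolute log2 fold change divided by the square root of the quasi-likelihood F statistic. It is thus not independent of the test, also for the genes described with no p. The fits were also run on simulated data with planted knockout changes. Those data held no table effect and no outlying library, so they do not show how the fits behave here. The 3 genes, the gene lists, the stretches and the tests were chosen with earlier results of these data known. Named genes were the 3, protein-coding rows within 500 kb, transport rows that passed or were among the 5 most abundant, the 5 most alike per gene (1 of which is not reported here), and cell type markers inside the stretches; Car8 and Slc13a1 were added after their values were seen. Alternatives were RLE factors, library totals, scaling inside the stretches, no filter, DESeq2 1.42.0, limma-voom (limma 3.58.1), no covariate, leaving out each library, and leaving out WT 4 and WT 5. Libraries were not identical within counting noise: the closest pair, WT 2 and WT 3, had a mean chi-square of 4.56 per row. The design text calls the replicates biological, and every library title in both tables carries its own tag of a number and a letter. The titles do not say that a tag is an animal. The second-table libraries are not otherwise tied to animals, so a p-value reflects only how these libraries vary, which may be technical.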

Additional observations from a re-analysis of the deposited data

Results flagged for a closer look

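Outlying libraries were sought by Dixon's criterion in 40 groups of 5 libraries, where chance flags about 1 in 20 groups, or 2, and 8 were found. Ahcyl2 in knockout 5, at 1391.2 CPM, stood above the other 4 knockout libraries, which lay between 1004.6 and 1107.7 CPM. The epithelial transcription factor gene Klf4 was low in knockout 4, at 1720.4 CPM. Among WT libraries, the proton pump gene Atp6v1f was high in WT 4, at 393.2 CPM, the sulfate carrier gene Slc13a1 was high in WT 5, at 136.8 CPM, and the sialic acid carrier gene Slc35a1 was low in WT 1, at 575.2 CPM. Among knockout libraries, Atp8b5, a phospholipid flippase gene, was high in knockout 5 at 11.3 CPM, Car8 was high in knockout 3 at 56.1 CPM, and Slc25a13, a mitochondrial aspartate and glutamate carrier gene, was low in knockout 1 at 136.9 CPM.

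The genotype difference of Car8 differed between the tables, with an interaction of -2.86 on the log2 scale (adjusted p = 0.00423 by edgeR).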

How the results depend on the processing

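Cftr and Ahcyl2 kept a pooled log2 fold change below 0 in all 18 alternatives run. With each library left out in turn it ranged from -0.815 to -0.565 for Cftr and from -0.873 to -0.685 for Ahcyl2, and in the second table from -1.325 to -0.434 and from -0.847 to -0.348. The sign was not stable for the Cftr interaction (-0.7 to 0.186), the Cftr difference between tables in knockout (-0.293 to 0.589) and the Ahcyl2 difference between tables in WT (-0.356 to 0.144). Rows called pooled were 548, and 1260 without the filter, 840 with DESeq2, 78 without WT 4, WT 5 and the covariate, and 223 to 1028 with 1 library left out (308, 261 and 1028 without knockout 1, 2 and 5; 311, 237, 223 and 262 without WT 1, 2, 4 and 5). The first table gave 596, 1322 without the filter and 158 to 456 with 1 left out. The second gave 85, 2 without the filter, 439 with DESeq2, 28 with limma-voom and 0 to 5 with 1 left out, where an arm of 1 library is assumed to vary like the others; the 3 edgeR fits with 0 had 784 to 2423 rows at an unadjusted p under 0.05. The interaction gave 200, 717 without the filter, 343 with DESeq2 and 57 to 483 with 1 left out. Between tables, WT gave 402, 1018 without the filter and 82 to 842 with 1 left out, and knockout gave 4, 2 with scaling inside the stretches, 173 without the filter, 8 with DESeq2 and 0 to 161 with 1 left out (392 to 823 at an unadjusted p under 0.05 in the 4 edgeR fits with 0). Of the transport rows 3 were called, 5 without the filter, with DESeq2 and with limma-voom, and 2 with scaling inside the stretches. Without WT 4 and WT 5 there were 0, and with 1 library left out 2 to 4. The causes were not tested. No paired analysis was possible because replicate numbers are absent from the labels. Aqp3 has no fitted value under the filter, and its 23 counts set the limit.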
